A study of Arabidopsis thaliana with 4 samples.

Results

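COR15A (AT2G42540), COR15B (AT2G42530), RD29A (AT5G52310) and TIL (AT5G58070) are 4 cold-regulated genes of Arabidopsis thaliana. They were taken by name, with earlier results of these data known, each through 1 fixed probe set. They are 4 of the 13356 genes that could be followed on these arrays. The platform annotation used here names 3 of the 4 probe sets. The pairing of the remaining probe set with RD29A, which the RefSeq gene table lists as LTI78, comes from the rule that defined the group and was not checked on probe sequences.

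Expression was measured in whole seedlings on 4 single-colour Affymetrix arrays, in 2 experiments of 2 arrays each. One experiment, called the first here, set the insertion line sfr6-3 (WiscDsLox504A08) beside wild-type Col-0. The other, called the second, set the insertion line sfr6-2 (SALK_048091) beside a Col-0 of its own. Seedlings of all groups were 7 days old, had grown at 20 °C on agar, and were moved to 5 °C for 6 h in the light phase. Each line was measured once per experiment, each allele is a single insertion line, and nothing in the labels says how many plants or cultures stood behind an array. Every array comes from cold-treated plants, so a level before the cold was not analysed here, and a lower level in a mutant cannot be told apart from a smaller rise.

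SFR6 encodes the MED16 subunit of Mediator, the complex through which transcription factors engage RNA polymerase II, and its mutants are known for failing to gain freezing tolerance. In the cold, CBF transcription factors are made and bind the C-repeat element in promoters of many COR genes, among them COR15A, COR15B and RD29A. COR15A and COR15B are closely related chloroplast stroma proteins that protect membranes during freezing-induced dehydration. RD29A encodes a hydrophilic protein and is a standard reporter gene for cold, drought and abscisic acid. TIL encodes a lipocalin that associates with membranes, is induced by cold and by heat, and protects against oxidative damage.

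COR15A was the most strongly reduced of the 4 genes in both alleles. On the log2 scale, COR15A read 13.99 in the wild type and 11.21 in sfr6-3 of the first experiment, and 14.51 in the wild type and 12.37 in sfr6-2 of the second. Both mutant arrays lay below both Col-0 arrays, with 1.62 between the lowest Col-0 and the highest mutant value. In sfr6-3 14.6% of the Col-0 level was left on the linear scale, and in sfr6-2 22.7% was left, so that this gene kept the smallest share of the group in either allele. These are bulk samples of whole seedlings, in which fewer cells expressing a gene and less RNA per cell cannot be told apart.

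COR15B, which lies next to COR15A on chromosome 2, read 13.02 in the wild type and 11.36 in sfr6-3 of the first experiment, and 13.25 in the wild type and 12.28 in sfr6-2 of the second. Its groups did not overlap either, and the gap between them was 0.74. The share left was 31.6% in sfr6-3 and 51.0% in sfr6-2, the second of which is a 1.96-fold reduction and so just short of the 2-fold rule. The log2 ratio of COR15A was lower than that of COR15B by nearly the same amount in both experiments, with differences of -1.12 in sfr6-3 and -1.17 in sfr6-2. A constant probe effect cancels in such a comparison of ratios. Compression of bright signals and cross-hybridisation between the related transcripts were not tested.

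RD29A was reduced in both alleles, and much more in sfr6-3 than in sfr6-2. It read 13.61 in the wild type and 11.07 in sfr6-3 of the first experiment, and 14.35 in the wild type and 13.18 in sfr6-2 of the second. It was the gene of the group in which the alleles stood furthest apart: 17.1% of the Col-0 level was left in sfr6-3 and 44.4% in sfr6-2. The ratio in sfr6-2 exceeded that in sfr6-3 by 1.37 on the log2 scale, a difference as large as that in 2.96% of all genes past the filter on low values. The sfr6-2 array stood only 0.43 below Col-0 of the first experiment. Set against that array in place of its own, 74.1% of the level was left in sfr6-2, and set against Col-0 of the second experiment 10.3% was left in sfr6-3.

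TIL showed the mildest reduction over both alleles and the opposite order of the alleles. It read 13.17 in the wild type and 12.60 in sfr6-3 of the first experiment, and 13.64 in the wild type and 12.38 in sfr6-2 of the second. Groups did not overlap, with a gap of 0.57 between them. The share left was 67.5% in sfr6-3, a 1.48-fold reduction, and 41.7% in sfr6-2, a 2.40-fold reduction. TIL was thus the gene of the 4 that stood lower against its own Col-0 in sfr6-2 than in sfr6-3, and the least reduced of the 4 in sfr6-3. In sfr6-2 its share lay close to that of RD29A, with log2 ratios that differed by 0.09, whereas in sfr6-3 the ratio of RD29A was lower by 1.98.

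**Figure D1:**
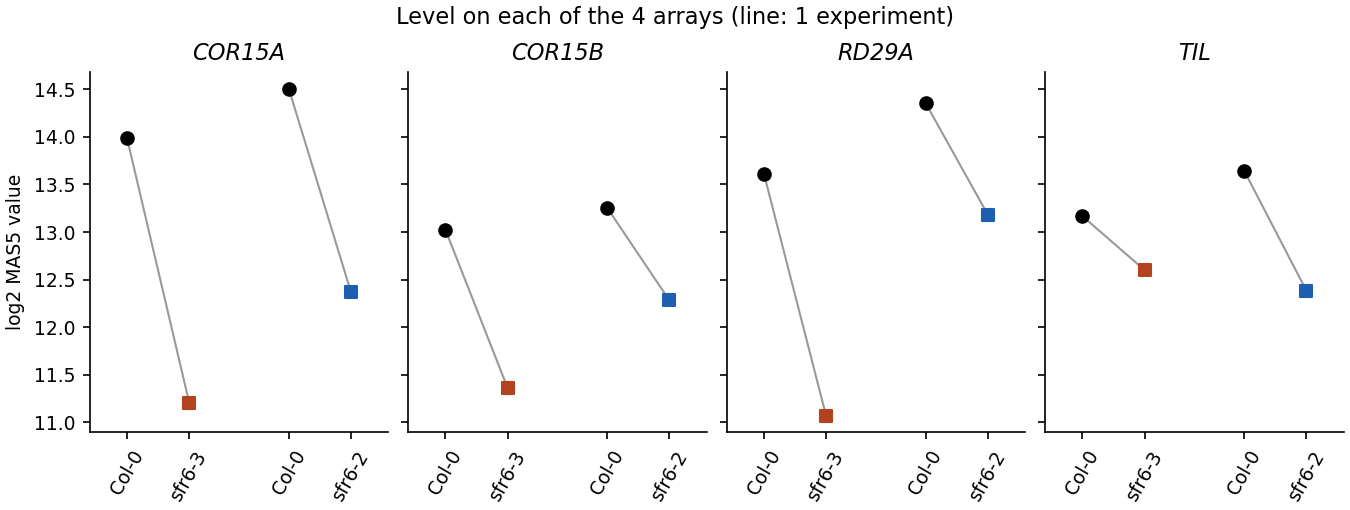
Log2 MAS5 value (vertical axis) of each gene on each of the 4 arrays, with black circles for Col-0, squares for the mutants and a line joining the 2 arrays of an experiment. All 8 lines slope down, and the steepest is that of COR15A, from 13.99 to 11.21 in the first experiment.

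The order of the arrays was the same for COR15A, COR15B and RD29A: Col-0 of the second experiment was highest, followed by Col-0 of the first, sfr6-2 and sfr6-3. For TIL the order of the mutants was turned, with sfr6-2 below sfr6-3 by 0.22, which is less than the 0.48 between the Col-0 arrays. All 4 genes were higher in Col-0 of the second experiment than of the first, as were 55.6% of all genes. The wild-type difference was 0.52 for COR15A, 0.23 for COR15B and 0.74 for RD29A, beside a median of 0.06 over all genes. A difference as large in either direction was seen in 30.8%, 62.9% and 17.9% of genes, and for TIL in 34.2%. Every difference from the own Col-0 was larger than the wild-type difference of the same gene, with the least room for TIL in sfr6-3, at -0.57 beside 0.48.

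**Figure D2:**
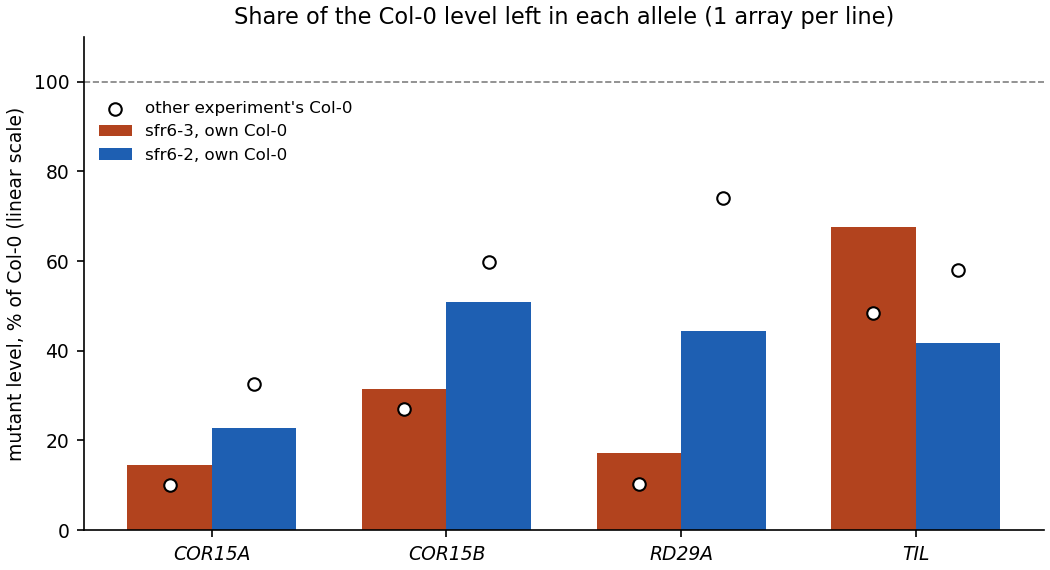
Mutant level as a percent of Col-0 on the linear scale (vertical axis), for sfr6-3 and sfr6-2 against the Col-0 of their own experiment (bars) and against the Col-0 of the other experiment (open circles), with 1 array per line and therefore no error bar. The bars run from 14.6% for COR15A in sfr6-3 to 67.5% for TIL in sfr6-3 and the circles from 10.2% for COR15A in sfr6-3 to 74.1% for RD29A in sfr6-2, all under 100%. The circles move furthest from the bars for RD29A in sfr6-2, from 44.4% to 74.1%.

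In sfr6-3 3 of the 4 genes, all but TIL, were at least 2-fold lower than in Col-0, where 3.86% of the 7205 genes past the filter were. In sfr6-2 3 of the 4, all but COR15B, were at least 2-fold lower, against 3.59% of all genes. COR15A and RD29A met the rule in both alleles, as did 1.61% of all genes. The 4 genes were chosen with earlier results of these data known, so their counts are not independent evidence of a direction. Single ratios rest on 1 array per line and have no replicate check. The median ratio of the group was -2.104 in sfr6-3 and -1.22 in sfr6-2, beside 0.11 and 0.08 over all genes. COR15A held rank 13 from the lowest of 7205 genes in sfr6-3 and rank 43 in sfr6-2. RD29A held ranks 20 and 187, COR15B ranks 87 and 272, and TIL ranks 728 and 163. A smaller reduction in sfr6-2 was measured for 3 of the 4 genes. This difference cannot be tested, since 4 arrays leave no residual degree of freedom for it. Each allele was measured in its own experiment, so a difference between alleles cannot be told apart from one between experiments.

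Taking the alleles as replicates of 1 mutant effect, with experiment as a block, limma placed all 4 genes past the threshold as lower (Benjamini-Hochberg adjusted p under 0.05 over 7205 genes). In the same fit 3.4% of all genes were called lower and 1.3% higher, 245 against 94. That split was 219 against 38 after quantile normalization, 173 against 17 after cyclic loess and 159 against 14 after median centring. The log2 level of COR15A fell by 2.46 (SE 0.20, limma adjusted p = 3.02e-07), with an SD of 0.45 between the ratios of the 2 experiments. Its mean share left was 18.2%, with a 95% interval from 13.5% to 24.4%. RD29A fell by 1.86 (SE 0.25, limma adjusted p = 8.08e-05), with an SD of 0.97 between experiments, the widest of the 4. Its mean share left was 27.6%, with an interval from 19.3% to 39.5%. The share of neither allele, 17.1% in sfr6-3 and 44.4% in sfr6-2, lay within that interval.

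COR15B fell by 1.32 (SE 0.21, limma adjusted p = 0.000502), which left 40.1% of the Col-0 level, with an interval from 29.6% to 54.3%. TIL fell by 0.91 (SE 0.21, limma adjusted p = 0.0118), which left 53.1%, with an interval from 39.4% to 71.5%. The interval of COR15A meets neither that of COR15B nor that of TIL. The interval of RD29A overlaps those of the other 3 genes, that of TIL only between 39.4% and 39.5%. Differences between the genes were not tested. Both mutant arrays lay below both Col-0 arrays for all 4 genes, and for 11.6% of all genes. The exact two-sided permutation test over the 4 arrays gave p = 0.333 for each gene, the smallest p that 2 arrays against 2 allow.

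Each of these standard errors rests on 1 residual and 17.3 prior degrees of freedom, so it reflects variance pooled over genes more than the gene's own 2 ratios. For each of the 4 genes the adjusted p was smaller in the reported setting than in any alternative that kept all arrays. Among those 9 alternatives the lowest limma adjusted p was 3.63e-05 for COR15A and 0.00342 for COR15B. For RD29A it was 0.00144 and for TIL 0.0280. The call of TIL ended in 6 of the 9 alternatives that kept all arrays. Those of all 4 genes ended without the block, where 0 of 7205 genes were called. Leaving out any 1 array left a group with 1 array, so calls were not read there. Without the sfr6-3 array RD29A stood at -0.80 and COR15B at -0.86, and without the sfr6-2 array RD29A stood at -2.91.

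**Figure D3:**
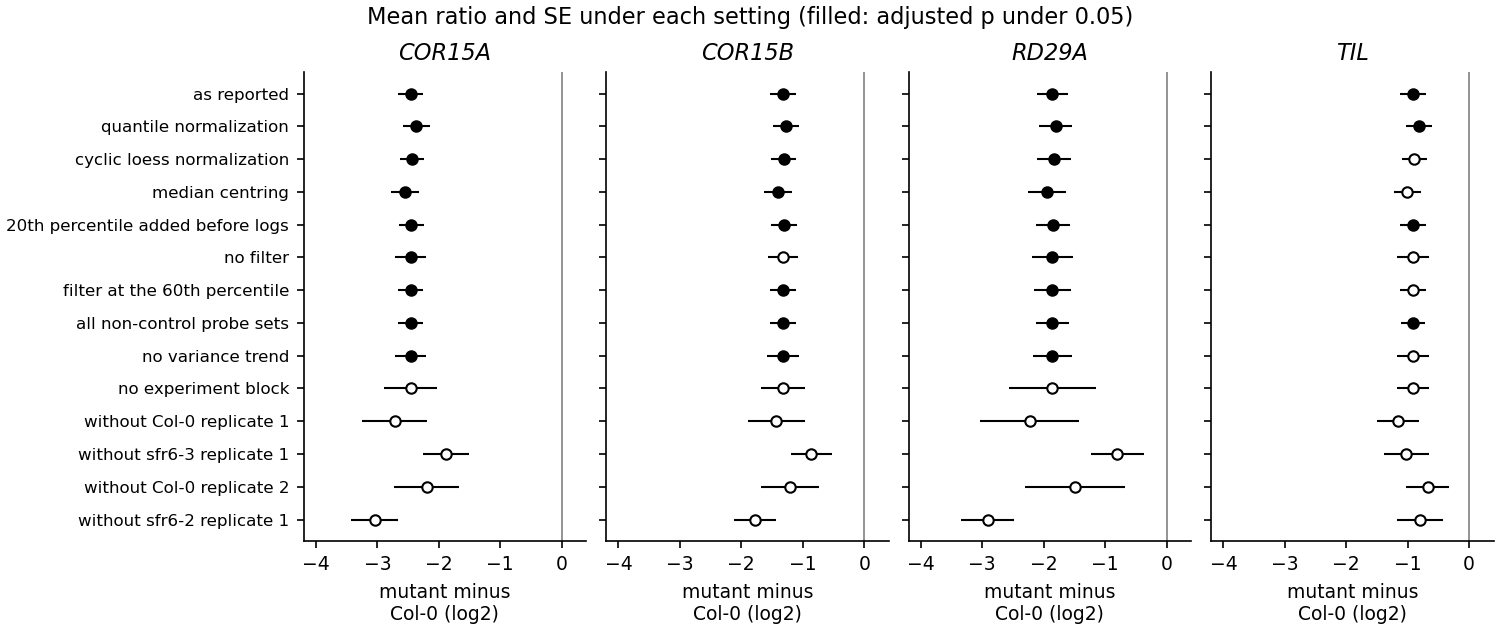
Mean log2 difference between mutants and Col-0 (horizontal axis, with bars of 1 SE) for each gene under the reported setting and 13 alternatives, with filled circles where the limma adjusted p is under 0.05. All circles lie below 0, COR15A and RD29A are filled in 8 of the 9 alternatives that keep all arrays, and TIL is filled in 3.

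Other targets of the cold pathway gave values in the same direction. Of 20 further genes listed as CBF targets or cold-regulated genes, 6 could be measured, that is, were paired with a probe set of their own above the filter, and all 6 fell by the same limma test, against 3.4% of all genes called lower. Their median mean ratio was -1.51, beside -1.59 for the 4 genes and 0.10 over all genes. The list was written with earlier results of these data known, so its count is not independent evidence of a direction.

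LTI30, a dehydrin gene, read 14.80 in the wild type and 12.33 in sfr6-3 of the first experiment, and 15.21 in the wild type and 13.48 in sfr6-2 of the second. It fell by 2.104 (SE 0.20, limma adjusted p = 2.00e-06). Its shares of 18.0% and 30.1% lay between those of COR15A and COR15B in each allele. COR47, another dehydrin gene, was less reduced, with 62.8% left in sfr6-3 and 58.1% in sfr6-2, and fell by 0.73 (SE 0.18, limma adjusted p = 0.0236). In Col-0 of the second experiment the probe sets of LTI30 and of COR47, which read 15.14, stood close to the brightest of all non-control probe sets, and whether either signal was compressed there was not tested.

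AT1G16850 kept 11.9% of the Col-0 level in sfr6-3 and 10.03% in sfr6-2, less than any of the 4 genes, and fell by 3.19 (SE 0.24, limma adjusted p = 7.90e-08). AT1G51090 kept 13.9% and 21.6% and fell by 2.53 (SE 0.22, limma adjusted p = 5.97e-07). The Col-0 arrays differed by 2.12 for AT1G16850 and by 2.06 for AT1G51090, against at most 0.74 for the COR15 genes, RD29A and TIL. COR27 and its relative COR28 (AT4G33980), which link cold to the circadian clock, kept 35.6% and 37.5% in sfr6-3 and 78.9% and 76.0% in sfr6-2, the same order of alleles as RD29A. COR27 fell by 0.92 (limma adjusted p = 0.0355) and COR28 fell by 0.91 (limma adjusted p = 0.0365). The calls of COR47, COR27 and COR28 ended under all 3 other normalizations, with values of -0.82 to -0.54 for COR47, -1.01 to -0.92 for COR27 and -0.996 to -0.91 for COR28. Those of all 6 genes ended without the block, where 0 of 7205 genes were called. Without sfr6-3 the value was -0.27 for COR27, -0.31 for COR28 and -1.18 for AT1G51090, and without sfr6-2 it was -1.56, -1.50 and -3.87. Without Col-0 of the second experiment AT1G51090 stood at -1.50.

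**Figure D4:**
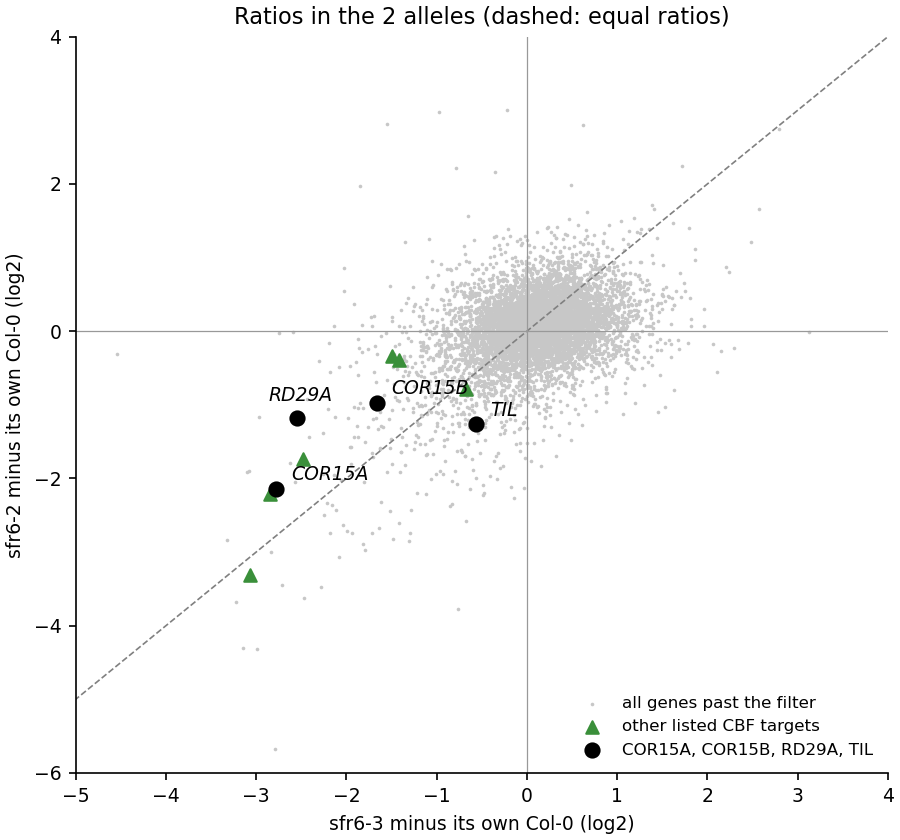
Log2 ratio of sfr6-2 (vertical axis) against that of sfr6-3 (horizontal axis), each to its own Col-0, for the 7205 genes past the filter (grey), the 4 genes (black circles) and the 6 further cold genes (triangles), with 1 array per line. COR15A, COR15B and RD29A lie above the dashed line of equal ratios and TIL lies below it.

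Of 21 upstream regulators on a second list, which holds the CBF genes, SFR6 and ICE1, only STZ was paired with a probe set of its own by the annotation used here, which names 13513 of the 22746 non-control probe sets by 1 gene. STZ, a zinc-finger repressor gene induced early in the cold, kept 32.6% of the Col-0 level in sfr6-3 and 19.9% in sfr6-2. That is the order of alleles seen for TIL. STZ fell by 1.97 (SE 0.24, limma adjusted p = 2.76e-05), a call that ended without the block. SFR6 itself and CBF1, CBF2 and CBF3 were not analysed here, so neither the genotype labels nor the level of the activators could be set beside the 4 targets. Of 12 abscisic acid response genes and 8 heat shock genes, which respond to other signals known to raise RD29A and TIL, 0 could be measured. Among the lipocalins, CHL, the chloroplast relative of TIL, read 10.34 in the wild type and 10.14 in sfr6-3, and then 10.75 in the wild type and 11.33 in sfr6-2. Its mean ratio of 0.19 did not pass the limma test (adjusted p = 0.739) and turned below 0 when Col-0 of the first experiment or sfr6-2 was left out.

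Genes beside the 4 on the chromosome were read as well, in the order of the RefSeq gene table of assembly TAIR10.1. AT2G42520, whose annotated span overlaps that of COR15B, stood at 0.38 in sfr6-3 and -0.30 in sfr6-2, with a mean ratio of 0.04 that did not pass the limma test (adjusted p = 0.960). YKT61, a gene of membrane fusion whose span overlaps that of TIL, stood at 0.03 and 0.26, with a mean ratio of 0.14 (limma adjusted p = 0.787). RR18, on the other side of TIL, was under the filter level. For AT2G42550 beside COR15A and for both neighbours of RD29A, LTI65 and CYP96A4, the annotation gave no single-gene probe set. Reductions as large as those of COR15B and TIL were therefore not seen in the overlapping gene of either.

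The genes with the most similar profile were sought by Euclidean distance over the 4 arrays, after centring each gene on its own mean. COR15A was nearest to LTI30 (distance 0.37), AT1G76590 (0.52) and TINY (AT5G25810, 0.53), against a median distance of 2.76 over all genes. COR15B was nearest to JAL33 (0.12), AT5G17460 (0.21) and AT5G64120 (0.25), against a median of 1.65. RD29A was nearest to AT4G30460 (0.26), AT4G30650 (0.47) and AT1G10770 (0.53), against 2.56. TIL was nearest to AT5G43740 (0.07), AT4G19200 (0.09) and AT2G45600 (0.13), against 1.19. Of these nearest genes, AT5G17460, AT5G43740 and AT2G45600 did not pass the limma test (adjusted p = 0.0699, 0.181 and 0.102), and the others were called lower. Within the group COR15A and RD29A lay at a distance of 0.92, as did COR15B and TIL, and these were the closest pairs. By this measure RD29A ranked 15 among the genes nearest to COR15A, COR15B ranked 43 and TIL ranked 178. Ranked by distance from TIL, however, the others lay far down the list, COR15B at 1158, COR15A at 6773 and RD29A at 6857. Distances over 4 arrays are a description of these arrays, and small ones are easier to reach for genes with small differences.

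All 4 arrays had been scaled to one trimmed mean of 500, and the median gene past the filter lay between 8.49 and 8.59. The 4 genes gave bright signals, at or above those of 93.0% of non-control probe sets on every array, so the filter on low values did not decide which of them were kept. The brightest probe sets read 15.01 to 15.21, and COR15A reached 14.51 in Col-0. Of 8 listed reference genes 3 could be measured and 0 passed the limma test, nor was any under an unadjusted p of 0.05, with mean ratios of 0.21 for AT2G28390, 0.04 for AT4G34270 and 0.02 for PEX4. The last 2 turned below 0 after cyclic loess normalization and median centring, and AT4G34270 also after quantile normalization. In sfr6-3 the single ratios were 0.41 for AT2G28390, -0.17 for AT4G34270 and -0.04 for PEX4. In sfr6-2 they were 0.01, 0.26 and 0.07. Both organs of a seedling were represented: RCA, of the shoot, read 14.74 to 14.95 and PYK10, of the root, 13.40 to 14.32. PYK10 stood at -0.49 in sfr6-3 and -0.06 in sfr6-2, and did not pass (limma adjusted p = 0.496). EXPA7, of root hairs, stood at 0.03 and -0.76 and did not pass either (limma adjusted p = 0.654). In the first experiment EXPA7 read 6.33 in Col-0 and 6.37 in sfr6-3, both under the filter level of 6.46. Col-0 of the second experiment was higher than that of the first by 1.59 for EXPA7, 0.43 for PYK10 and 0.06 for RCA. Of 6 shoot and 6 root markers listed, 1 and 2 were measured, of 6 seed markers none, and the part of tissue makeup in the results was not tested. The 3′ minus 5′ signal of the GAPDH control, a sign of RNA integrity, was 0.31 to 0.45 in Col-0 and 0.18 to 0.20 in the mutants, and that of actin was 3.45 to 3.61 and 3.46 to 3.67. The part of RNA integrity in the results was not tested.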

How the data were processed

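Labelled cRNA from total RNA of cold-treated seedlings was hybridised to 4 arrays, 2 of Col-0 and 1 each of sfr6-3 and sfr6-2. The authors deposited log2 values per probe set, for which the submitters' processing notes name MAS5 and affy 1.36.1. Converted to the linear scale, each array has the same mean after trimming 2% at each end, so arrays had been scaled singly, and no further normalization was applied. Detection calls and probe sequences were not used here. Precision is limited by the number of arrays.

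Of 22810 probe sets, 64 controls were left out, and 13513 were paired with 1 gene by the platform annotation, with symbols updated through the RefSeq gene table. The probe set of RD29A was added by the rule that defined the group. A gene was represented by its brightest probe set and kept when its mean reached 6.46, the 40th percentile of non-control probe sets. Ratios were taken within each experiment, with 2-fold as the rule and no test. A genotype effect over both alleles was estimated by limma 3.58.1 (R 4.3.3), with a block for experiment taken from the design, a variance trend and Benjamini-Hochberg adjustment over 7205 genes at 0.05. P-values rest more on variance pooled over genes than on the difference between a gene's 2 ratios. That difference may be technical, and it mixes allele with experiment. The fit was tested on simulated data in which a changed gene had the same effect in both alleles. A difference between alleles was not part of that simulation. The 4 genes, the gene lists, the markers and the tests were chosen with earlier results of these data known. Named genes are the 4, measured members of the lists, chromosomal neighbours and the 3 nearest profiles of each. Alternatives were other normalizations, filters, probe set choices and variance models, no block, leaving out each array, and the other experiment's Col-0.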

Additional observations from a re-analysis of the deposited data

Results flagged for a closer look

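Among the genes reported beside the 4, those below stood on opposite sides of 0 in the 2 alleles. This difference was not tested, because 4 arrays leave no residual degree of freedom for it. It cannot be told apart from a difference between the experiments. The ratio in sfr6-2 exceeded that in sfr6-3 by 0.79 for CHL, the chloroplast relative of TIL. For the reference genes it did so by 0.43 for AT4G34270 and by 0.12 for PEX4. For AT2G42520, which overlaps COR15B, the difference was -0.69. Of the tissue markers, it was -0.79 for EXPA7 and 0.15 for RCA. None of the 4 cold genes stood on opposite sides of 0.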

How the results depend on the processing

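The mean ratios of COR15A, COR15B, RD29A and TIL stayed below 0 under all 13 alternatives. The call of TIL ended after cyclic loess (-0.89, limma adjusted p = 0.0673), after median centring (-1.004, adjusted p = 0.0620), and, at an unchanged -0.91, with no filter, with a filter at the 60th percentile, with no variance trend and without the block (adjusted p from 0.0707 to 0.834). That of COR15B, at -1.32, ended with no filter (limma adjusted p = 0.0515) and without the block. Without the block COR15A at -2.46 and RD29A at -1.86 lost their calls too, and limma called 0 of the 4 genes, all 4 of which had an unadjusted p under 0.05, and 0 of 7205 genes in all, with 384 at an unadjusted p under 0.05. With no filter 2 of the 4 genes were called. Leaving out each array in turn also removes the block and leaves 1 array in a group, so calls were not read there. The values then ranged from -3.04 to -1.88 for COR15A, -1.78 to -0.86 for COR15B, -2.91 to -0.80 for RD29A and -1.15 to -0.68 for TIL, where a lone array is assumed to vary like the others. The cause of these changes was not tested.

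With Col-0 exchanged between the experiments the ratios in sfr6-3 were -3.30 for COR15A, -1.89 for COR15B, -3.29 for RD29A and -1.04 for TIL. In sfr6-2 they were -1.62, -0.74, -0.43 and -0.78. Other normalizations and the 20th percentile added before logs moved no single ratio of the 4 genes by more than the residual SD of its gene.

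Of the 6 further cold genes, 3 were called after quantile normalization, cyclic loess, median centring and the 20th percentile added. The count was also 3 with no filter, with the 60th percentile filter and with no variance trend. Without the block it was 0, and 3 had an unadjusted p under 0.05 in limma. Over all genes the 245 lower and 94 higher calls became 219 and 38 with quantile normalization, 173 and 17 with cyclic loess, 159 and 14 with median centring, 171 and 27 with the 20th percentile added, 102 and 13 with no filter, 126 and 14 with the 60th percentile filter, 401 and 120 over all probe sets, and 141 and 30 with no variance trend. Some small values changed sign. AT4G34270 stood at -0.0254 after quantile normalization, -0.0597 after cyclic loess and -0.0459 after median centring, and at -0.12 to 0.21 without 1 array. PEX4 stood at -0.0482 after cyclic loess and -0.0753 after median centring, and at -0.13 to 0.16 without 1 array, and CHL at -0.41 to 0.79.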
